A study of Mus musculus with 10 samples.

Results

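The glutathione S-transferase and UDP-glucuronosyltransferase genes were described in the livers of 10 mice. Every gene model was taken whose symbol, or any symbol of a merged model, starts with Gst and a class letter (a, k, m, o, p, t or z) and a number, with Mgst and a number, or with Ugt1, Ugt2 or Ugt3. This gave 35 of 59408 gene models, and 33 of them had a normalised value of at least 10 in at least 3 of the 10 libraries and were tested among 18390 models. Of the 33, 19 encode soluble transferases (3 of alpha class, 1 kappa, 7 mu, 2 omega, 2 pi, 3 theta and 1 zeta), 3 encode microsomal transferases and 11 encode glucuronosyltransferases (1 model for Ugt1a, 1 Ugt2a, 7 Ugt2b and 2 Ugt3a). The Ugt1a model merges Ugt1a10, Ugt1a9, Ugt1a7c, Ugt1a6b, Ugt1a6a, Ugt1a5, Ugt1a2 and Ugt1a1, which share their last exons, so no single Ugt1a isoform can be read from it. The 2 members below the filter were Gstt4 and the merged model of Ugt2a1 and Ugt2a2. Gsta2 and Gstp3 were not analysed here.

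Glutathione S-transferases couple the tripeptide glutathione to electrophilic drugs, carcinogens and products of lipid peroxidation, and the microsomal enzymes are an unrelated family of membrane proteins with the same kind of activity. UDP-glucuronosyltransferases of the endoplasmic reticulum transfer glucuronic acid from UDP-glucuronate to bilirubin, bile acids, steroids and drugs. Both reactions make water-soluble conjugates that hepatocytes export into bile or blood, and in liver many of these genes are known targets of the transcription factors NRF2, AhR, CAR and PXR.

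All animals were wild-type C57BL/6 mice whose livers were taken at day 35. In the PBC group, a model of autoimmune primary biliary cholangitis (3 mice, numbered 7, 8 and 9), 100 µg of 2-octynoic acid coupled to bovine serum albumin was injected intraperitoneally in Freund's adjuvant on days 0, 14 and 28, with 2 µg of α-galactosylceramide, an NKT cell agonist, given intravenously with the first 2 injections. In the PSC group, a chemical model of primary sclerosing cholangitis (3 mice, numbered 11, 13 and 14), the food held 0.089% DDC, a porphyrin-forming compound that injures bile ducts, for 2 weeks, followed by 1 week of normal food and 1 more week of DDC. The 4 control mice (numbered 1 to 4) were untreated and received neither adjuvant, albumin nor glycolipid, so the antigen cannot be told apart from its adjuvant and glycolipid here, and the sources used here give neither sex nor age. Values below are normalised reads per gene model in the order PBC 7, 8 and 9, then PSC 11, 13 and 14, then control 1 to 4.

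Recovered depth, in units of M (mega) reads, was 44.3 to 51.1 in PBC, 55.3 to 95.4 in PSC and 38.3 to 69.4 in control libraries, and mitochondrial genes took 5.13% to 13.7% of the reads. All livers held hepatocyte marker RNA, with a summed level of 6 markers of 8.71e+06 to 1.29e+07 in PBC, 5.69e+06 to 6.84e+06 in PSC and 8.58e+06 to 9.83e+06 in control livers. The summed level of 8 cholangiocyte markers was 10143 to 13686 in PBC, 54172 to 94930 in PSC and 7674 to 13202 in control livers. That of 7 Kupffer cell and macrophage markers was 90302 to 123187 in PBC, 62166 to 79274 in PSC and 26501 to 43910 in control livers, and that of 6 neutrophil markers was 34226 to 101904, 8532 to 15054 and 332 to 6197 in the same order. That of 4 T cell markers was 1066 to 1340 in PBC, 152 to 207 in PSC and 165 to 230 in control livers, and that of 6 stellate cell and fibroblast markers was 6054 to 11534, 32617 to 35014 and 3502 to 6524. The sums of 5 endothelial and 5 erythroid markers overlapped between each model and the controls. No defining marker was at 0 in a whole group, and the part of these shifts in the results below was not tested. In bulk tissue, fewer cells of a type and less RNA per cell cannot be told apart.

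Per kb of exon, Mgst1, which encodes the main microsomal transferase of the hepatocyte, was the most abundant transferase RNA in all 3 groups. It stood at 181550 normalised reads per kb in PBC, 284787 in PSC and 247153 in control livers, and made up 43.3% ± 2.27, 55.5% ± 2.95 and 50.2% ± 5.86 (SD, n = 3, 3 and 4) of the summed per-kb level of all members in the same order. In control livers Gsta3 followed with 35870, Gstm1 with 32278 and Gstt1 with 26439 per kb, and these neighbours overlapped between libraries. The next were Ugt2b36 with 23382, Ugt2b5 with 22313 and Gstp1 with 16110 per kb. At the low end Ugt2b38 had 55.6, Gsto2 12.5 and Mgst2 2.04 per kb in control livers. Exon length here is the union of all annotated exons, such as 4344 bases for Gsta3, 1473 for Gstm1 and 3703 for Mgst2. The order depends on these lengths, which can exceed that of a single transcript. In normalised reads Gsta3 averaged 155819, Ugt1a 99550 and Gstm1 47546 in control livers. Gsta1 stood at rank 28 of 35 in PBC and 19 in PSC, against 29 in control livers.

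**Figure D1:**
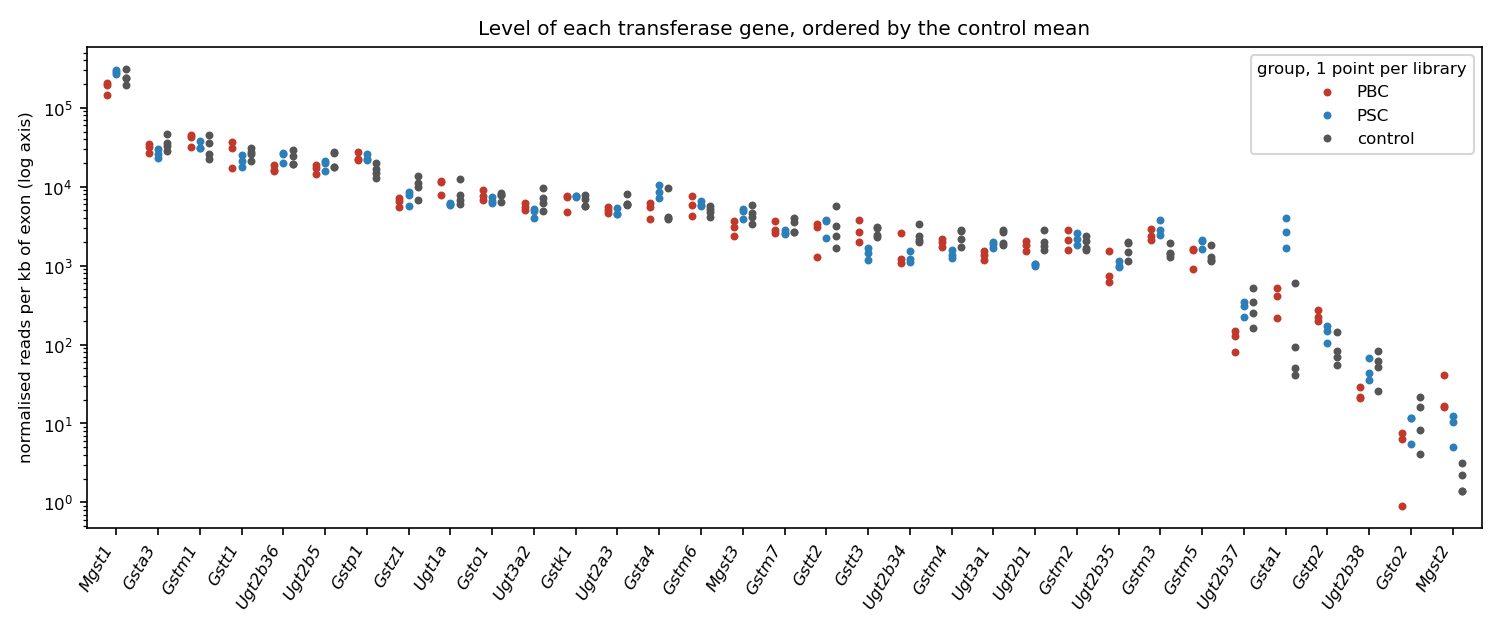
Normalised reads per kb of exon (log axis) of the 33 tested transferase genes in each library, ordered by the control mean, with PBC, PSC and control points side by side. Mgst1 lies above all other genes, Gsto2 is among the 2 lowest in each group, Mgst2 is lowest in PSC and control, and Gsta1 is the gene whose PSC points stand farthest above the control points.

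The first comparison set PBC against control livers. A member is said to have risen or fallen where limma, on log2(normalised reads + 1) with all 10 libraries in one fit, gave a Benjamini-Hochberg adjusted p under 0.05 over all 18390 models. In PBC livers 3 of 33 members rose (9.09%, against 7.6% of all models) and 2 fell (6.06%, against 2.34% of all models). Mgst2, Gstp2 and Gstm3 rose, and Ugt2b37 and Ugt3a1 fell. In PSC against control livers, Gsta1, Mgst2 and Gstm3 rose, 3 of 33 members (9.09%, against 8.25% of all models). Gstm4, Gstt3, Ugt2b1 and Ugt2b34 fell, 4 of 33 members (12.1%, against 6.48% of all models). The shares of members that rose were close to those of all models in both comparisons. The number of PBC calls was sensitive to single libraries: 5 members rose without control 4, 1 without PBC 7 and 1 without PBC 9, and 0 fell without control 1 or PBC 9, 1 without PBC 7, PSC 13 or PSC 14 and 4 without PBC 8. In PSC, 6 rose without control 4, and 1 fell without control 1, PSC 11 or PSC 13 and 2 without PSC 14.

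Groups that did not overlap were counted as well. In PBC against control, 4 members were higher in every PBC library than in any control library (12.1%, against 12.7% of all models) and 4 were lower (12.1%, against 6.89%). In PSC against control, 5 were higher without overlap (15.2%, against 15.9% of all models) and 6 were lower (18.2%, against 15.6%). The median log2 fold change of the 11 glucuronosyltransferase models was -0.43 in PBC and -0.43 in PSC, with 10 of 11 below 0 in each, where the median of all models was 0.01 and 0.06. The same control livers enter both comparisons. The median of the 19 soluble transferases was 0.03 in PBC and 0.11 in PSC, and in PBC it turned to -0.01 with TMM scaling and -0.09 with equal totals. The glucuronosyltransferase count of 10 below 0 was the same in both comparisons under these scalings.

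**Figure D2:**
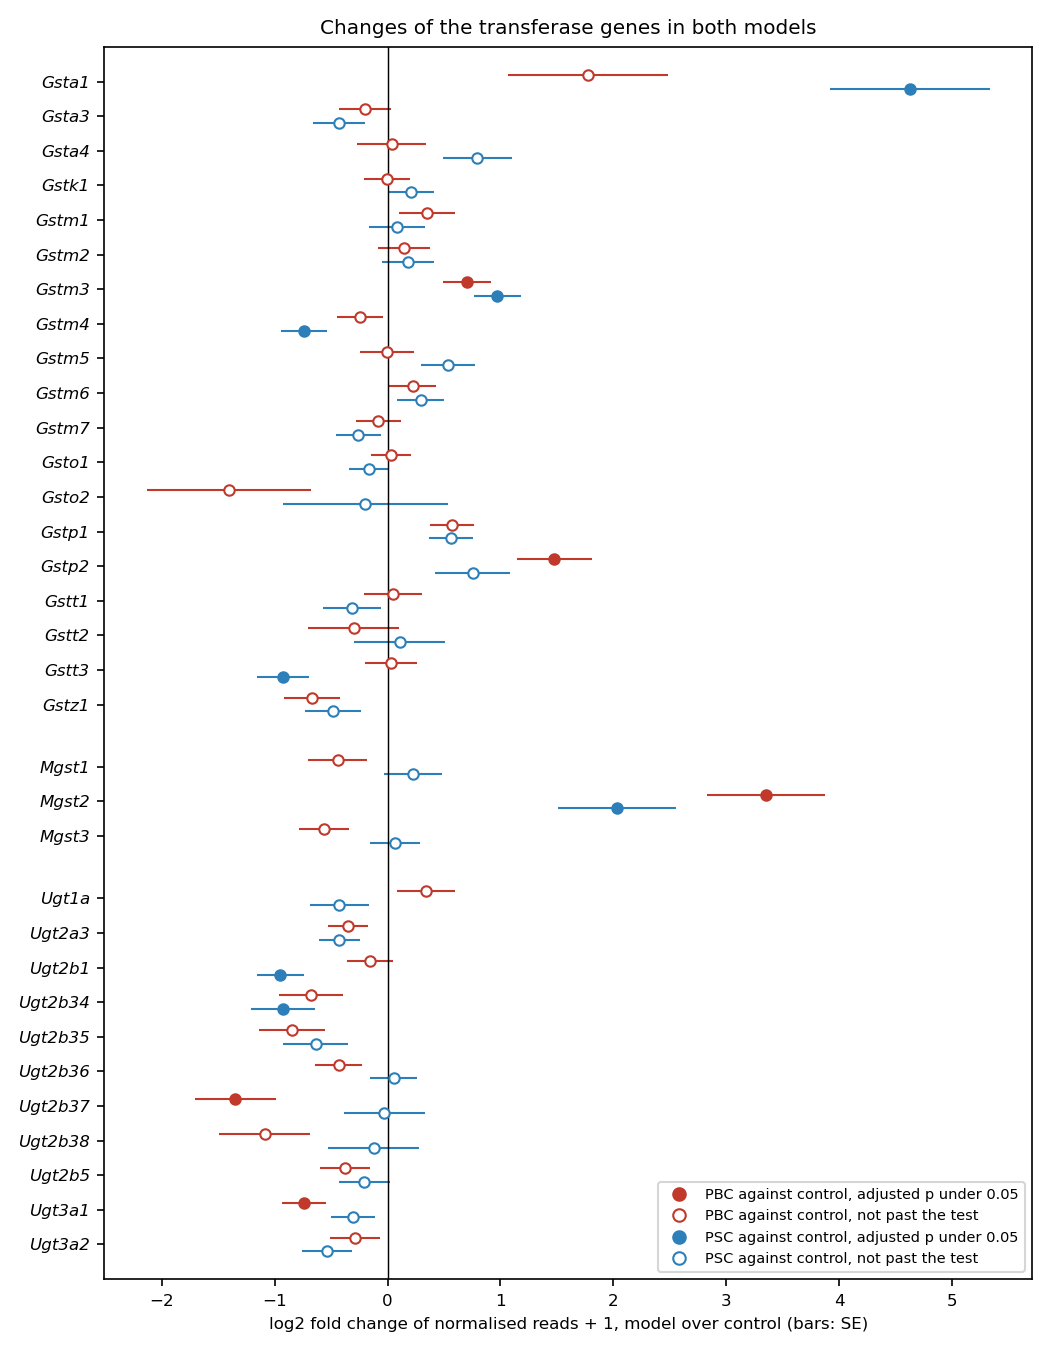
Log2 fold change of normalised reads + 1 with its SE for each tested transferase gene, PBC over control in red above PSC over control in blue, filled where the adjusted p was under 0.05. Soluble genes stand at the top, microsomal genes in the middle and glucuronosyltransferases at the bottom, where 10 of 11 points of each model lie left of 0.

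Among the alpha class, which acts on lipid hydroperoxides and steroid intermediates, Gsta1 gave the largest change of all members, a rise in PSC livers. Gsta1 (GSMG0039839, mm10 chr9:78230669-78242683, + strand) had 209, 499 and 391 normalised reads in PBC livers, 3824, 1585 and 2524 in PSC livers, and 38.9, 48.8, 89.4 and 569 in control livers. All PSC livers stood above every other liver, the PBC livers lay above 3 controls, and control 4 lay above all PBC livers. In PSC against control the log2 fold change was 4.63 (SE 0.71, adjusted p = 0.00122), and it was 5.46 without control 4, 3.81 with edgeR, 3.82 with DESeq2 and 5.23 with library weights. In PBC against control it was 1.78 (SE 0.71, adjusted p = 0.126), which did not pass. Without control 4 it was 2.61 and passed (adjusted p = 0.00204).

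The promoter of Gsta1 is shown because this gene changed most. It is RefSeq sequence (GRCm38.p6, chr9:78230419-78230698, + strand), 250 bases before the start site and 30 from it, with a match to the xenobiotic response core GCGTG in capitals.
Gsta1 promoter: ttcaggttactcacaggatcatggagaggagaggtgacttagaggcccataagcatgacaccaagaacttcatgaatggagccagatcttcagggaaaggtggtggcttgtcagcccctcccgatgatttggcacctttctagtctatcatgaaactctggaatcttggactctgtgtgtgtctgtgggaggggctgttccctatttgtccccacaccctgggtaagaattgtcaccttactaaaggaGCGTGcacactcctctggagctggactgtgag

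Gsta1 has a near copy beside it, the predicted gene Gm3776, so its reads are uncertain. The coding sequences of both are 672 bases long and differ at 2 bases (99.7% identity), and 86.3% of the 75-base words of Gsta1 transcripts also occur in other genes, with 76.2% of its words found in Gm3776. The first 60 coding bases are shown from GENCODE M21 transcripts, with the base that differs in capitals.
Gsta1: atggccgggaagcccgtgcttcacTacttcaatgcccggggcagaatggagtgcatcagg
Gm3776: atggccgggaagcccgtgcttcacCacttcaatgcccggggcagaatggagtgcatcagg
Gm3776 (GSMG0052483, mm10 chr9:78257129-78269166) had 152, 183 and 224 normalised reads in PBC livers, 1894, 966 and 1435 in PSC livers, and 0, 21.8, 53.6 and 279 in control livers. The order of the livers was close to that of Gsta1, with control 4 again above the other controls. It rose in PSC (log2 fold change 5.83, SE 1.27, adjusted p = 0.00937), with 4.29 without control 1, which held no read, 7.00 without control 4, 4.00 with edgeR and 8.44 with library weights. In PBC its value of 2.93 did not pass (adjusted p = 0.159), and it passed without control 4 (4.10, adjusted p = 0.0292) and with library weights (5.65, adjusted p = 0.0154). Its level was 0.495 to 0.609 of that of Gsta1 in PSC livers, 0.367 to 0.726 in PBC livers and 0 to 0.600 in control livers. The sequences are nearly identical and the counting of shared reads is not given. Reads of the pair therefore cannot be assigned to either gene with certainty.

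The other alpha genes are far more abundant and did not pass. Gsta4, whose enzyme conjugates the hydroxyalkenals formed from oxidised lipids, had 7813, 4945 and 6955 normalised reads in PBC livers, 9215, 10756 and 13196 in PSC livers, and 5034, 4875, 5232 and 12230 in control livers. Control 4 lay inside the PSC range, and the other controls lay below all PSC livers. The PSC log2 fold change was 0.80 (SE 0.30, adjusted p = 0.0934). Without control 4 it was 1.12 (adjusted p = 0.00587), and with library weights 1.01 (adjusted p = 0.00163). Gsta3, which in mice detoxifies the aflatoxin epoxide, ranged over 115549 to 150390 in PBC, 100559 to 131035 in PSC and 122224 to 202530 in control livers, with overlap among all groups.

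The mu class, a cluster of 7 genes on chromosome 3 whose enzymes conjugate epoxides and quinones, held members that moved in opposite directions. Gstm3 (GSMG0025913, mm10 chr3:107963696-107969174, - strand) had 3840, 3148 and 2753 normalised reads in PBC livers, 4916, 3181 and 3711 in PSC livers, and 1887, 1856, 1709 and 2528 in control livers. Every cholangitis liver lay above every control liver. It rose in PSC (log2 fold change 0.97, SE 0.21, adjusted p = 0.00892), a call lost without PSC 11 (adjusted p = 0.0548). In PBC it passed narrowly (0.71, SE 0.21, adjusted p = 0.0499), and 15 of 20 alternatives ended that call, with adjusted p of 0.0513 to 0.182. Among them were a pseudocount of 0.5, edgeR and the removal of any single library except control 4, while the log2 fold change stayed between 0.58 and 0.82 in them. Gstm3 shares 21.6% of its 75-base words with other genes.

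Gstm4 (GSMG0025917, mm10 chr3:108040408-108044860, - strand) had 3407, 3733 and 2952 normalised reads in PBC livers, 2703, 2122 and 2325 in PSC livers, and 4781, 3720, 4749 and 2911 in control livers. The PSC livers lay below all other livers, and the PBC livers lay within the control range. It fell in PSC (log2 fold change -0.74, SE 0.21, adjusted p = 0.0302), and its PBC value of -0.24 did not pass (adjusted p = 0.488). The PSC call was lost without control 1 (adjusted p = 0.0885), control 3 (0.0510), PSC 11 (0.0560), PSC 13 (0.121) or PSC 14 (0.117). A stretch of coding bases 316 to 375 of both genes is shown because they moved in opposite directions in PSC and can be told apart by sequence. Their coding sequences have 657 bases each and differ at 137 (79.15% identity), the longest identical run is 27 bases, and Gstm4 shares no 75-base word with another gene. The bases that differ are in capitals, from GENCODE M21 transcripts.
Gstm3: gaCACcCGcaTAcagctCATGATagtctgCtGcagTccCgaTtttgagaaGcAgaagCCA
Gstm4: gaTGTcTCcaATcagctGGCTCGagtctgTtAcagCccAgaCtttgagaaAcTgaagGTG

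The promoter of Gstm3 is shown because the gene rose in both models (RefSeq GRCm38.p6, chr3:107969145-107969424, - strand, 250 bases before the start site and 30 from it). It holds no match to either core searched, so no letter is in capitals.
Gstm3 promoter: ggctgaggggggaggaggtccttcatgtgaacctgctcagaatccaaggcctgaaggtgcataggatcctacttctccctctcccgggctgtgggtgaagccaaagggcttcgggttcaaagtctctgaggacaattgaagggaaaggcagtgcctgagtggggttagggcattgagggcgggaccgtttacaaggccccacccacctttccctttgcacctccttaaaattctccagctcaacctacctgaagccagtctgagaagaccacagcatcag

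The remaining mu genes did not pass in any comparison in the main fit. Gstm1, the most abundant of the class, ranged over 47663 to 66018 in PBC, 45209 to 56232 in PSC and 33147 to 65932 in control livers. Gstm6 ranged over 8486 to 15112 in PBC, 11222 to 13173 in PSC and 8338 to 11209 in control livers, with all PSC livers above the control livers by a small margin (log2 fold change 0.29, adjusted p = 0.37). Gstm5 lay at 1165 to 2072 in PBC, 2101 to 2698 in PSC and 1447 to 2304 in control livers. Its PSC log2 fold change of 0.53 (adjusted p = 0.154) passed with library weights (0.69, adjusted p = 0.00228). In these genes the groups overlapped, except for Gstm6 between PSC and control and Gstm5 between PBC and PSC. Gstm7 lay at 4115 to 5911 in PBC, 4014 to 4554 in PSC and 4218 to 6358 in control livers. Gstm2 lay at 2621 to 4812 in PBC, 3084 to 4304 in PSC and 2651 to 4039 in control livers.

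**Figure D3:**
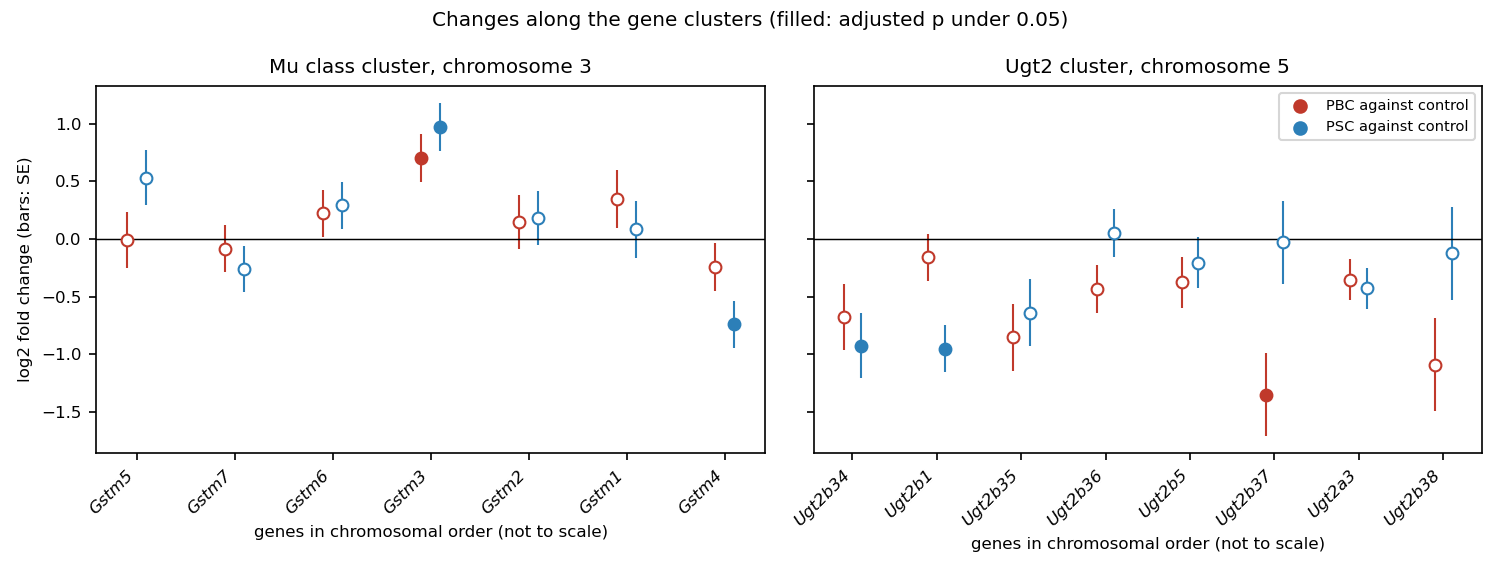
Log2 fold change with its SE of each tested gene along the mu class cluster of chromosome 3 (left) and the Ugt2 cluster of chromosome 5 (right), PBC over control in red and PSC over control in blue, filled where the adjusted p was under 0.05. Gstm3 and Gstm4 lie on opposite sides of 0 in PSC, and 8 of 8 Ugt2 genes lie below 0 in PBC.

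The pi class comprises Gstp1, an abundant enzyme with broad electrophile specificity, and its minor copy Gstp2, which lies beside it on chromosome 19. Gstp2 (GSMG0019921, mm10 chr19:4040287-4042239, - strand) had 306, 223 and 248 normalised reads in PBC livers, 166, 118 and 191 in PSC livers, and 60.9, 78.3, 92.0 and 160 in control livers. All PBC livers lay above all others, and the PSC livers overlapped with control 4 only. It rose in PBC (log2 fold change 1.48, SE 0.33, adjusted p = 0.0148), a call lost without PBC 7 (adjusted p = 0.0632) or PBC 9 (0.0532). The PSC value of 0.76 did not pass (adjusted p = 0.145) and passed without control 4 (1.02, adjusted p = 0.0455).

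Gstp1 had 42126, 33777 and 34537 normalised reads in PBC livers, 35292, 33613 and 40279 in PSC livers, and 19897, 25895, 23213 and 30746 in control livers. Every cholangitis liver lay above every control liver. Its log2 fold changes of 0.57 in PBC (SE 0.20, adjusted p = 0.0802) and 0.56 in PSC (SE 0.20, adjusted p = 0.0712) did not pass, and both passed without control 4 (0.68 with adjusted p = 0.0484, and 0.67 with adjusted p = 0.0432). Both also passed with library weights (adjusted p = 0.00875 and 0.00177), and the PSC value with DESeq2 (adjusted p = 0.0428). Gstp1 made up 13.8% ± 0.695 of the summed per-kb level of the soluble transferases in PBC and 14.7% ± 0.484 in PSC, against 9.96% ± 1.30 in control livers (SD, n = 3, 3 and 4). The coding sequences of the pair have 633 bases and differ at 12 (98.1% identity), with 303 identical bases in a row. Of the 75-base words, 44.5% of those of Gstp1 occur in Gstp2 and 40.1% of those of Gstp2 occur in Gstp1, so the less abundant Gstp2 is uncertain. The first 60 coding bases are shown from GENCODE M21 transcripts, with the bases that differ in capitals, because the rise of Gstp2 rests on telling the copies apart.
Gstp1: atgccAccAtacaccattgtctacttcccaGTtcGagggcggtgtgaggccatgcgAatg
Gstp2: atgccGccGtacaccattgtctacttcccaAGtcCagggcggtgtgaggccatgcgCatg
The promoter of Gstp2 (RefSeq GRCm38.p6, chr19:4042192-4042471, - strand, 250 bases before the start site and 30 from it) is shown for the rise in PBC, and holds no match to either core.
Gstp2 promoter: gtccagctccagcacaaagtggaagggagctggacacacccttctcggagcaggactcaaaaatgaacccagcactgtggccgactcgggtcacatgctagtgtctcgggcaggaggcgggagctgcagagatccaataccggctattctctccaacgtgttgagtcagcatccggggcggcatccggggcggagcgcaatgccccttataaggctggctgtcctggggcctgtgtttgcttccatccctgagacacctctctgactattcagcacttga

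In the theta class, which dehalogenates small molecules, Gstt3 fell in PSC. Gstt3 (GSMG0004256, mm10 chr10:75774117-75781422, - strand) had 14742, 7743 and 10322 normalised reads in PBC livers, 5553, 4475 and 6523 in PSC livers, and 11516, 8979, 9329 and 11943 in control livers. The PSC livers lay below all others, and the PBC livers surrounded the control range. The PSC log2 fold change was -0.93 (SE 0.23, adjusted p = 0.0182), and the call was lost without control 1 (adjusted p = 0.0539), PSC 11 (0.0595) or PSC 13 (0.0904). Gstt3 shares 19.1% of its 75-base words with Gm20441. Gstt1, its abundant neighbour, did not pass, with 26381 to 56895 in PBC, 26880 to 38557 in PSC and 32734 to 47098 in control livers. Gstt2 varied widely, with 5275 to 13916 in PBC, 9214 to 15535 in PSC and 6874 to 23423 in control livers. Gstt4 was at most 4.97 in any liver and was not tested.

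The kappa, omega and zeta genes did not pass in either model. Gstz1, which encodes the maleylacetoacetate isomerase of tyrosine breakdown, ranged over 28378 to 36140 in PBC, 28732 to 43535 in PSC and 34505 to 70264 in control livers. Its log2 fold change of -0.67 in PBC (SE 0.25, adjusted p = 0.104) passed without control 2 (-0.86, adjusted p = 0.0336). It also passed with DESeq2 (adjusted p = 0.0243) and with library weights (adjusted p = 0.0385). Gstk1, found in mitochondria and peroxisomes, ranged over 7076 to 11352 in PBC, 10978 to 11116 in PSC and 8376 to 11455 in control livers. Gsto1, a thiol transferase, ranged over 13715 to 18369 in PBC, 12664 to 15196 in PSC and 13054 to 16792 in control livers. Gsto2 was low, at 2.12 to 17.5 in PBC, 12.9 to 27.9 in PSC and 9.72 to 50.5 in control livers. The ranges of these genes overlapped in every comparison.

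Of the microsomal genes, Mgst2, whose enzyme can make cysteinyl leukotrienes, rose in both models and was the member with the largest change in PBC. Mgst2 (GSMG0024284, mm10 chr3:51661179-51682674, + strand) had 59.7, 62.1 and 150 normalised reads in PBC livers, 18.8, 38.8 and 46.0 in PSC livers, and 11.7, 5.13, 5.11 and 8.33 in control livers. The 3 groups did not overlap, and PBC was highest. The log2 fold change was 3.35 in PBC (SE 0.52, adjusted p = 0.00156). It was 2.03 in PSC (SE 0.52, adjusted p = 0.0215), a call lost without PSC 13 (adjusted p = 0.0847) or PSC 14 (0.119). Only 1 of 4 control livers reached the filter value of 10, so Mgst2 entered the test through the livers in which it was high, and at a filter of 50 in 3 libraries through the PBC livers alone. Its PBC value is the same with no filter (adjusted p = 0.00408), and the PBC call was made in all 20 alternatives. The 674 words of 75 bases in its protein-coding transcripts do not occur in another gene. Other exon bases, of 3703 in all, were not searched, and reads were not examined. The summed macrophage and neutrophil markers were also higher in both models, without overlap with the control livers and highest in PBC, and their part in the rise of Mgst2 was not tested. Its promoter (RefSeq GRCm38.p6, chr3:51660929-51661208, + strand, 250 bases before the start site and 30 from it) is shown as that of a gene that rose in both models, and holds no match to either core.
Mgst2 promoter: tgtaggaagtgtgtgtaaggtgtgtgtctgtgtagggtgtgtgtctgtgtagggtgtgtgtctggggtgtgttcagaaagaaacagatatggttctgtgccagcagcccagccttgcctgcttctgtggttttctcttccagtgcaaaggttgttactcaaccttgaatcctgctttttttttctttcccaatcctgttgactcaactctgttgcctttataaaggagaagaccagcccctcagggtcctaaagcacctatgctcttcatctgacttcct

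The other microsomal genes did not pass against control livers. Mgst1 had 416858, 291536 and 387984 normalised reads in PBC livers, 603738, 571339 and 544751 in PSC livers, and 486367, 388170, 628008 and 487528 in control livers. All PBC livers lay below all PSC livers, and both groups overlapped with the controls. Mgst3, a glutathione peroxidase of membranes, ranged over 2610 to 4061 in PBC, 4324 to 5721 in PSC and 3743 to 6501 in control livers. It showed the same order, with PBC below PSC without overlap.

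The Ugt2 genes, whose enzymes glucuronidate steroids and bile acids, form a cluster on chromosome 5, and of 8 tested, 1 fell in PBC and 2 fell in PSC, where 2.34% and 6.48% of all models fell. In PSC livers Ugt2b1 and Ugt2b34 fell. Ugt2b1 (GSMG0030689, mm10 chr5:86916638-86926531, - strand) had 3981, 4694 and 5227 normalised reads in PBC livers, 2688, 2578 and 2715 in PSC livers, and 4044, 4613, 5155 and 7229 in control livers. The PSC livers lay close together below all others, and the PBC livers overlapped with the controls. The PSC log2 fold change was -0.95 (SE 0.21, adjusted p = 0.00898), which passed in all 20 alternatives, and the PBC value of -0.16 did not pass (adjusted p = 0.669).

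Ugt2b34 (GSMG0030688, mm10 chr5:86889769-86906947, - strand) had 4690, 11033 and 5267 normalised reads in PBC livers, 5178, 6559 and 4794 in PSC livers, and 9092, 10138, 8621 and 14504 in control livers. The PSC livers and PBC 7 and 9 lay below all controls, and PBC 8 lay within the control range. It fell in PSC (log2 fold change -0.92, SE 0.28, adjusted p = 0.0443), a call lost in 9 of 20 alternatives: with no filter, equal totals or edgeR, and without control 1, 2 or 4 or any 1 of the PSC libraries, at adjusted p of 0.0525 to 0.174. In PBC its value of -0.68 did not pass (adjusted p = 0.146). With library weights it was -0.83 (adjusted p = 0.0202), and without PBC 8 it was -1.06 (adjusted p = 0.00955). PBC 8 stood apart in the same way for Ugt2b35, which had 2467, 5221 and 2078 normalised reads in PBC livers, 3232, 3835 and 3359 in PSC livers, and 3872, 4950, 6703 and 6590 in control livers. Its PBC log2 fold change of -0.85 (SE 0.29, adjusted p = 0.0815) was -1.25 without PBC 8 (adjusted p = 0.00461) and -0.79 with library weights (adjusted p = 0.0304). Its PSC value of -0.64 passed only without PBC 8 (adjusted p = 0.0458).

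In PBC livers Ugt2b37 fell. Ugt2b37 (GSMG0030692, mm10 chr5:87240492-87254805, - strand) had 281, 245 and 150 normalised reads in PBC livers, 576, 429 and 661 in PSC livers, and 665, 992, 473 and 308 in control livers. The PBC livers lay below all others, and the PSC livers lay within the control range. The PBC log2 fold change was -1.35 (SE 0.36, adjusted p = 0.0321), and the call was lost in a fit of PBC and control livers only (adjusted p = 0.0795) and without control 1 (0.0805), control 2 (0.0603) or PBC 9 (0.150). The PSC value was -0.03 (adjusted p = 0.97). Ugt2b38 (chr5:87409939-87424204), whose coding sequence is 94.1% identical to that of Ugt2b37, had 54.7, 41.4 and 40.2 normalised reads in PBC livers, 81.6, 67.9 and 127 in PSC livers, and 97.2, 117, 158 and 48.6 in control livers. Only control 4 lay within the PBC range. Its PBC value of -1.09 (SE 0.40, adjusted p = 0.103) passed without control 4 (-1.41, adjusted p = 0.0297) and with DESeq2 (-1.26, adjusted p = 0.0335). Ugt2b38 shares 28.0% of its 75-base words with other genes, 27.9% with the far more abundant Ugt2b5. Ugt2b37 shares 6.26% of its words with Ugt2b5, and the part of such reads in either value was not tested.

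The abundant Ugt2 genes did not pass. Ugt2b36 ranged over 32512 to 39301 in PBC, 40915 to 54468 in PSC and 40495 to 60583 in control livers, with the PBC livers below all others (log2 fold change against control -0.43, adjusted p = 0.206). Ugt2b5 ranged over 27141 to 34571 in PBC, 29682 to 39347 in PSC and 32598 to 50564 in control livers. Ugt2a3 ranged over 9778 to 11613 in PBC, 9533 to 11358 in PSC and 12512 to 17143 in control livers, with all cholangitis livers below all controls. Its log2 fold changes were -0.35 in PBC (adjusted p = 0.226) and -0.43 in PSC (adjusted p = 0.125). The merged model of Ugt2a1 and Ugt2a2 was at most 8.33 in any liver, and was at 0 in all PBC livers.

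Ugt3a enzymes use other sugars in place of glucuronic acid, as known for the human proteins, and Ugt3a1 fell in PBC. Ugt3a1 (GSMG0012961, mm10 chr15:9279829-9315038, + strand) had 3158, 4133 and 3682 normalised reads in PBC livers, 4525, 5336 and 4958 in PSC livers, and 7136, 5196, 4930 and 7494 in control livers. The PBC livers lay below all others, and the PSC livers overlapped with controls 2 and 3. The PBC log2 fold change was -0.74 (SE 0.20, adjusted p = 0.0317). The call was lost in a fit of PBC and control livers only (adjusted p = 0.0846) and without control 1 (0.0903), control 4 (0.0662), PBC 7 (0.124), PBC 9 (0.101), PSC 13 (0.0515) or PSC 14 (0.0525). Ugt3a2 did not pass, with 15610 to 19186 in PBC, 12389 to 16093 in PSC and 15263 to 29613 in control livers, and its PSC value of -0.54 passed without control 3 (-0.69, adjusted p = 0.0378).

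The merged Ugt1a model, which includes the bilirubin enzyme Ugt1a1, was the 1 glucuronosyltransferase model with a log2 fold change above 0 in PBC. It had 135350, 94320 and 138962 normalised reads in PBC livers, 69611, 70960 and 72641 in PSC livers, and 81316, 93982, 72510 and 150392 in control livers. All PBC livers lay above all PSC livers, and both overlapped with the widely spread controls. The log2 fold changes against control, 0.34 in PBC (SE 0.26, adjusted p = 0.438) and -0.43 in PSC (SE 0.26, adjusted p = 0.294), did not pass. It made up 17.0% ± 2.72 of the summed per-kb level of the glucuronosyltransferases in PBC and 9.43% ± 1.06 in PSC, against 10.8% ± 2.13 in control livers (SD, n = 3, 3 and 4). For Ugt1a that level uses an exon length of 11832 bases, the exons of all merged isoforms together, against 2059 for Ugt2b36. In normalised reads Ugt1a averaged 99550 in control livers and Ugt2b36 48144, so this share depends on the length used. The summed per-kb level of all glucuronosyltransferases was 60938 ± 3008 in PBC, 64266 ± 7748 in PSC and 76421 ± 11889 in control livers. On this scale the PBC livers (57541 to 63264) lay below all controls (65165 to 93096), while PSC livers (55477 to 70106) overlapped with them. These sums also depend on the length used for Ugt1a, and whether the order holds at a shorter length was not tested.

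**Figure D4:**
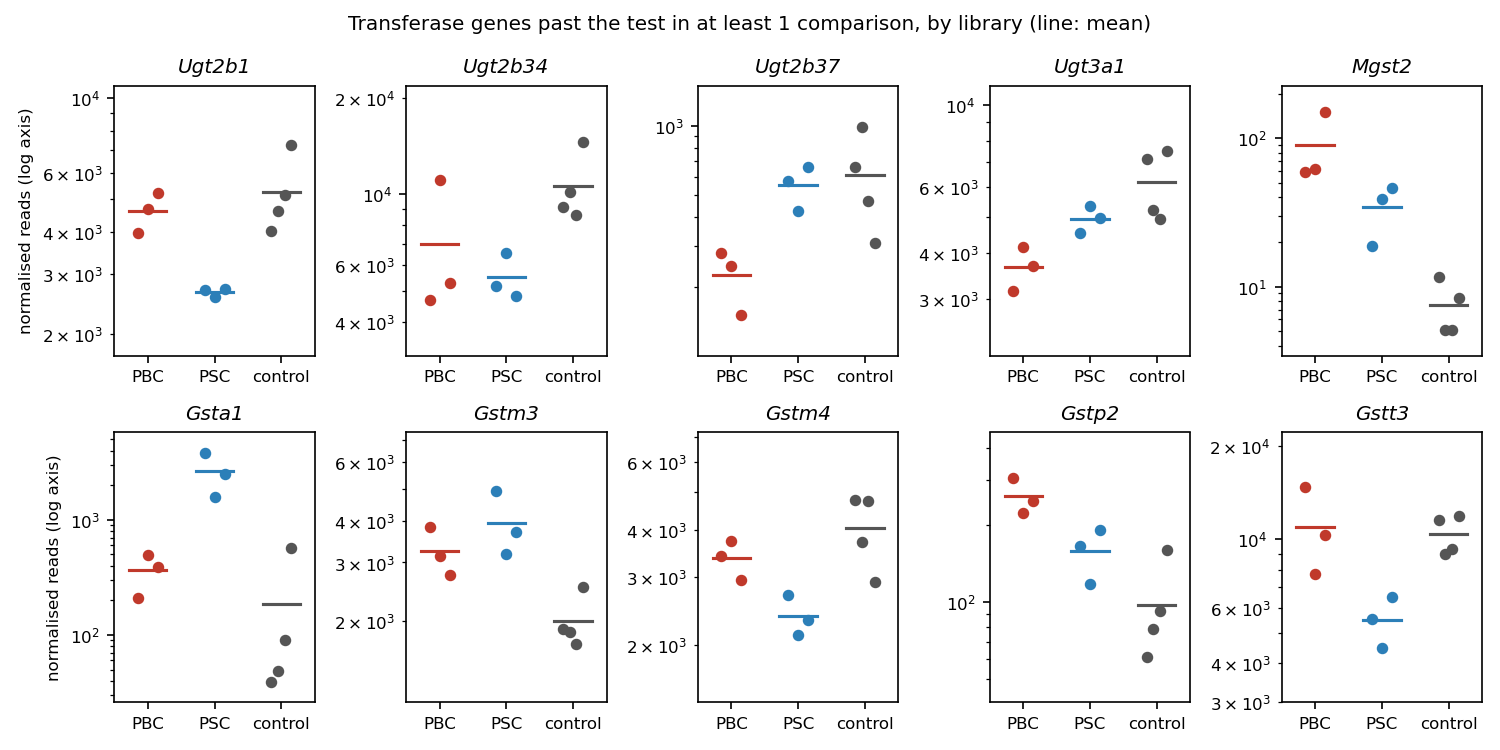
Normalised reads (log axes that differ between panels) of the 10 transferase genes that passed in at least 1 comparison, 1 point per library and a line at the group mean, with PBC, PSC and control from left to right. Gsta1 stands highest in PSC, Mgst2 and Gstp2 in PBC, and Ugt2b1, Gstm4 and Gstt3 lie lowest in PSC.

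The models were then compared with each other. In PBC against PSC livers limma called 0 of 33 members higher and 0 lower, where 1.11% of all models were higher and 1.13% lower. At an unadjusted p under 0.05, 5 members were higher (15.2%, against 9.72% of all models) and 7 lower (21.2%, against 8.78%), and edgeR called 0 and 0 (against 1.1% and 1.16%). DESeq2 called 2 higher, Gstt3 and Ugt2b1 (6.06%, against 3.21% of all models), and 2 lower, Ugt2b37 and Mgst1 (6.06%, against 3.39%). Groups did not overlap for 6 members that were higher in PBC (18.2%, against 14.6% of all models) and 9 that were lower (27.3%, against 12.6%). The lower ones were Gsta1, Gsta4, Gstm5, Mgst1, Mgst3, Ugt2b36, Ugt2b37, Ugt2b38 and Ugt3a1, and the higher ones were Gstm4, Gstp2, Gstt3, Mgst2, Ugt1a and Ugt2b1. The difference for Gsta1 was -2.85 (log2, SE 0.76, adjusted p = 0.0725), and it passed without control 4 (adjusted p = 0.00377) and in a fit of PBC and PSC livers only (0.00482). Leaving out control 4 does not change this difference, and acts through the shared estimate of the spread and the number of models tested (18262).

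The closest others were Gstt3 at 0.95 (SE 0.25, adjusted p = 0.0643), which passed without PBC 8 (1.18, adjusted p = 0.0285), and Ugt2b1 at 0.79 (SE 0.22, adjusted p = 0.0819), which passed without control 4 (adjusted p = 0.0412). Ugt2b37 stood at -1.32 (SE 0.38, adjusted p = 0.0984) and Mgst2 at 1.32 (SE 0.56, adjusted p = 0.228). So for genes called in 1 model only, a difference between the models did not pass in the main fit. The summed hepatocyte markers were higher in every PBC liver than in any PSC liver, and the summed cholangiocyte markers were lower, which was not tested as a part of these differences.

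Of 31 tested genes of glutathione synthesis and recycling, 3 rose and 1 fell in PBC, 6 rose and 0 fell in PSC, and 0 were higher and 1 lower in PBC against PSC. Of all models, 7.6% rose and 2.34% fell in PBC, 8.25% rose and 6.48% fell in PSC, and 1.11% were higher and 1.13% lower in PBC against PSC, and the counts of the lists that follow stand against the same shares. The list median of the log2 fold change was 0.16 in PBC and 0.51 in PSC, against 0.01 and 0.06 for all models. Gpx2, an epithelial glutathione peroxidase, averaged 151 ± 21.6 normalised reads in PSC and 8.95 ± 5.28 in control livers (log2 fold change 4.12, adjusted p = 0.000331), with 4.84 under library weights. In PBC against PSC it was lower, at 14.2 ± 2.87 in PBC livers against the 151 of PSC livers (log2 fold change -3.33, adjusted p = 0.00776), a call lost without PSC 14 (adjusted p = 0.0667). Gpx3, the secreted peroxidase, rose by 1.26 on the log2 scale in PBC (adjusted p = 0.0168), a call lost without PBC 7 (0.0814) or PBC 9 (0.0869), and by 2.49 in PSC (adjusted p = 0.000169). Hpgds, the sigma class transferase that makes prostaglandin D2 in immune cells, rose in PBC (1.12, adjusted p = 0.0218), a call lost without control 1 (0.0603) or PBC 9 (0.0869), and in PSC (1.34, adjusted p = 0.00667). Alox5ap, the activating protein of leukotriene synthesis, rose in PSC (1.72, adjusted p = 0.00194). In PBC Cbs, which starts the transfer of sulfur to cysteine, rose (0.99, adjusted p = 0.0283) and Chac2, which degrades glutathione, fell (-1.08, adjusted p = 0.0114). The call of Cbs was lost without control 4 (0.0509), PBC 7 (0.101) or PBC 9 (0.124), and that of Chac2 without PBC 9 (0.0733). Gclc and Gclm, the subunits of the enzyme that limits glutathione synthesis, did not pass in either model.

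Of 13 genes that supply UDP-glucuronate or act on glucuronides, Ugdh, which makes UDP-glucuronate, among them, limma called 0 in every comparison. At an unadjusted p under 0.05, 1 was higher and 1 lower in PSC and 0 in the other comparisons, edgeR called 0, and DESeq2 called 1 higher and 1 lower in PSC. The list median was 0.04 in PBC and 0.07 in PSC, against 0.01 and 0.06 for all models. Of 16 transporters of conjugates, 1 rose and 1 fell in PBC, and 1 rose and 4 fell in PSC, with list medians of 0.10 and -0.21. Abcc3, which exports glucuronides into blood, rose in both, by 0.91 in PBC (adjusted p = 0.0042) and 1.08 in PSC (adjusted p = 0.00118). The uptake carriers Slco1b2 (-0.87, adjusted p = 0.0192), Slco2b1 (-0.79, adjusted p = 0.0139), Slco1a1 (-4.45, adjusted p = 0.0193) and Slco1a4 (-1.21, adjusted p = 0.0333) fell in PSC, and Slco1b2 fell in PBC (-0.78, adjusted p = 0.0381). The call of Slco2b1 was lost without PSC 14 (0.0785), and that of Slco1b2 in PSC without control 1 (0.0527), PSC 11 (0.0871) or PSC 14 (0.0748). The Slco1a1 value was -5.69 without control 4, -5.32 with edgeR and DESeq2 and -5.45 with library weights, and its call was lost without control 1 or 2 or any 1 PSC library (0.0510 to 0.0771), and that of Slco1a4 without control 1 or 4 or any 1 PSC library (0.0616 to 0.135 over all alternatives that ended it). The Slco1b2 call in PBC was lost without any 1 of control 1, control 4, PBC 7, PBC 9 and the PSC libraries (0.0501 to 0.16). Abcc2, which exports conjugates into bile, did not pass.

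Of 20 transcription factors known to control these genes, 1 rose and 0 fell in PBC, and 2 rose and 3 fell in PSC, with list medians of -0.02 and -0.36. Cebpb, induced in the acute phase, rose in PBC (2.15, adjusted p = 0.000649) and PSC (1.60, adjusted p = 0.0037). Nr3c1, the glucocorticoid receptor, fell in PSC (-1.83, adjusted p = 0.00993), a call lost without PSC 14 (0.0576). Arnt, the partner of AhR, fell (-0.78, adjusted p = 0.0369) and Nfe2l2, which encodes NRF2, rose in PSC (0.64, adjusted p = 0.041). The Arnt call was lost without control 1, 2 or 4 or any 1 PSC library (0.0616 to 0.129 over all alternatives that ended it), and the Nfe2l2 call without any 1 of controls 1, 2 and 3, PBC 7 and the PSC libraries (0.0533 to 0.184). Hnf4a fell in PSC (-0.91, adjusted p = 0.0488), lost in 12 of 20 alternatives (0.0510 to 0.174), the removal of any 1 of controls 1, 2 and 4, PBC 9 and the PSC libraries among them. Nr1i2 and Nr1i3, which encode PXR and CAR, and Ahr did not pass in either model.

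Among 5 NRF2 targets other than the transferases, Hmox1, which degrades heme, rose in PSC (1.46, adjusted p = 0.00559) and was the 1 called in PBC, while Srxn1, which repairs peroxiredoxins, rose in PSC (0.62, adjusted p = 0.0226). The Srxn1 call was lost without control 1 (0.0656), PSC 11 (0.0879) or PSC 14 (0.123). Nqo1 and Gclm did not pass. Of 4 AhR targets, 1 fell in PSC, Cyp1a1 (-1.59, adjusted p = 0.0413), lost in 10 of 20 alternatives (0.0525 to 0.177), among them the removal of any 1 control or PSC library. Cyp1a2 was higher in PBC than in PSC (1.64, adjusted p = 0.0106), lost without PSC 13 (0.0624) or PSC 14 (0.0631). Of 6 CAR and PXR targets, 2 rose in PBC, Cyp2b10 (4.08, adjusted p = 0.000123) and Cyp2c29 (1.37, adjusted p = 0.00219), and both were higher in PBC than in PSC as well (3.21, adjusted p = 0.00318, and 1.74, adjusted p = 0.00268). In PSC Cyp3a11, which oxidises many drugs, rose by 1.00 on the log2 scale (adjusted p = 0.0112), lost without PSC 14 (0.0744) or with no filter (0.0683). Of 4 PPAR alpha targets limma called 0 in every comparison, with 1 lower in PBC against control and 1 lower in PBC against PSC at an unadjusted p under 0.05. For these genes edgeR called 0, and DESeq2 called 1 lower in PBC against control.

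The promoters of 32 members, 48 in all, were searched on both strands from 250 bases before to 50 after the start site for the antioxidant response core TGACNNNGC, which NRF2 binds, and the xenobiotic response core GCGTG, which AhR binds. The end of the first core and the start of the second can share the letters GC. The first was found in 4 of 48 (8.333%, against 12.39% of 32851 mouse promoters of the same length), those of Gsta3, Gstm5, Gstm7 and Mgst1. The second was found in 7 of 48 (14.58%, against 32.39%). The 7 count Gstm1 more than once, through overlapping promoters that hold the same site. Some members, Ugt1a among them, have several of the 48 promoters, so these shares are not shares of separate genes. Of the members that passed, only Gsta1 held a match, the GCGTG shown above. A match is a description of letters and not of binding.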

How the data were processed

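Liver RNA was measured by stranded poly(A) RNA sequencing with paired reads of 75 bases, per the labels' protocols. The submitters' processing notes name STAR 2.4.0, the build mm10, Picard, SAMtools, FastQC and DESeq2. How reads were counted, with which tool and strand setting, and what was done with reads that fit more than 1 gene, is not given in the sources used here. Deposited values are a signal, reads per gene model after normalisation by the authors. Within each library the lower values were multiples of 1 step (tolerance 0.1, 100% of the values checked). Whole reads were recovered by division and rounding, and the higher values, those of abundant members among them, were not checked in this way.

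Models that reached 10 in 3 or more of 10 libraries were tested with limma 3.58.1 (R 4.3.3, intensity trend) on log2(value + 1), with a two-sided test, all groups in one fit and Benjamini-Hochberg adjustment at 0.05. The added 1 draws low values together, while means of log values give low or 0 libraries more weight. A fold change of low genes on this scale can therefore be too small or too large. For Gm3776 in PSC against control it was 5.83, against 4.00 with edgeR and 4.01 with DESeq2. For Gsta1 it was 4.63, against 3.81 and 3.82. The p-values set a group difference against the spread between these mice, which was pooled over all groups and moderated with the trend over all models. Alternatives were pseudocounts of 0.5 and 5, no filter, a filter of 50, TMM scaling, equal totals, edgeR 4.0.16 and DESeq2 1.42.0 on the recovered reads, a fit of the compared groups only, library weights and leaving out each library. The fit was tested on simulated data. Shared words of 75 bases came from the protein-coding GENCODE M21 transcripts of each member, searched in all transcripts of other genes. Coding identity came from the same transcripts, and promoters from RefSeq (GRCm38.p6). Promoters were matched by symbol for 32 of 35 members, and the Gsta4, Gstt2 and Ugt3a2 entries were not used here.

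The members, gene lists, alternatives and the rule for named genes were chosen with earlier results of these data known. By that rule every tested member is named, members that passed are given in every library, and up to 4 called genes with the smallest adjusted p are named from each list and comparison.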

Additional observations from a re-analysis of the deposited data

Results flagged for a closer look

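Each tested member was examined in the 4 control libraries for a sample far from the others, by the gap to its nearest neighbour as a share of the range. Of 33 genes, 3 were flagged, all for control 4, where chance flags about 1 gene in 20. Gsta1 had 569 normalised reads in control 4, against 38.9 to 89.4 in the other controls. Gsta4 had 12230 in control 4, against 4875 to 5232. Ugt2a3 had 17143 in control 4, against 12512 to 12749. Gsta1 and Gsta4 lie close together on chromosome 9, and their values without control 4 stand beside the results above. The cause was not tested.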

How the results depend on the processing

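Of 12 calls of members against control livers, 3 passed in all 20 alternatives: Mgst2 in PBC, and Gsta1 and Ugt2b1 in PSC. Mgst2 had entered the test through the livers in which it was high, so its passing under other filters is no separate support. The other 9 were lost in at least 1 alternative, and no called value changed sign.

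The shares of all 18390 models called under the same setting stand in brackets. The number of members higher in PBC against control, 3, became 5 with library weights (15.2%, against 13.2% of all models) and ranged from 1 to 5 when single libraries were left out. The number lower, 2, became 4 with DESeq2 (12.1%, against 4.96%), 0 with only the compared groups (against 0.484%) and 5 with library weights (15.2%, against 9.8%), with a range of 0 to 4. Library weights added Gsta1 and Gstp1 to those higher in PBC, and Gstz1, Ugt2b34 and Ugt2b35 to those lower. In PSC against control the number higher, 3, became 7 with library weights (21.2%, against 21.2%) and ranged from 2 to 6, and the number lower, 4, became 8 with library weights (24.2%, against 18.5%) and ranged from 1 to 5. Those added by library weights were Gsta4, Gstm5, Gstp1 and Gstp2, higher, and Gsta3, Ugt2a3, Ugt3a1 and Ugt3a2, lower. In PBC against PSC the number higher, 0, became 2 with DESeq2 (6.06%, against 3.21%), 1 with only the compared groups (3.03%, against 1.38%) and 3 with library weights (9.09%, against 3.58%). The number lower, 0, became 2 with each of these settings (6.06%, against 3.39%, 1.58% and 3.81% of all models). Both ranged from 0 to 1 when single libraries were left out. The cause of these shifts was not tested.

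Scaling to equal totals moved the median of all models in PBC against control to -0.12. Over all models, calls in PBC against control ranged from 673 to 2425 higher and 63 to 1803 lower, in PSC against control from 680 to 3899 higher and 245 to 3404 lower, and in PBC against PSC from 61 to 658 higher and 43 to 701 lower.

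No paired analysis was possible because the groups share no replicate numbers. With 3 or 4 livers a group, members at low levels such as Gsto2 had wide errors (SE 0.73), and values that did not pass do not show that groups were alike.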
